A study of Homo sapiens with 8 samples.

Results

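The genes described here write, read and erase chemical marks on RNA. There were 36 of them, fixed by name: THUMPD1 of ac4C, 19 genes of m6A, 5 of m5C, 4 of pseudouridine, 2 of inosine and 5 of tRNA methylation. The data are peaks of RNA bound by an antibody to N4-acetylcytidine (ac4C), in SiHa cells lacking NAT10 and in SiHa cells with NAT10 intact. SiHa is a human cervical carcinoma cell line, and whether the knockout is 1 clone or a pool is not given in the sources used here. Each of the 4 groups (immunoprecipitated and input RNA of the knockout, immunoprecipitated and input RNA of SiHa) had 2 libraries, and the deposited files hold 1 peak list for each cell population. The list whose name adds a K to SiHa was taken as the knockout list, which no label says in words. Peaks were assigned to a gene when the Ensembl identifier that carries them had most of its peak bases in the RefSeq span of the gene, on its strand where the tables give one. In that way 30 of the 36 genes had a peak in at least 1 list. They held 14 of the 4557 knockout peaks and 57 of the 12924 SiHa peaks.

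NAT10 is the enzyme that acetylates cytidine in RNA, and THUMPD1 is the RNA-binding partner it needs to acetylate tRNA. The other marks are made by unrelated enzymes. In messenger RNA, m6A is placed by a complex built around METTL3 and METTL14, removed by the demethylases FTO and ALKBH5, and bound by reader proteins of the YTH and IGF2BP families. The NSUN family and TRDMT1 methylate cytosine to m5C, pseudouridine synthases rotate uridine in place, ADAR enzymes deaminate adenosine to inosine in double-stranded RNA, and tRNA carries many further methyl groups. A peak in one of these genes says that its own transcript was enriched by the ac4C antibody. It does not measure the amount of the enzyme or of the mark that the enzyme makes.

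No list gives a read count or a value for a single replicate, so the depth is unknown and no difference between the lists has a replicate check or a p-value here. Intervals are 95% exact binomial (Clopper-Pearson) intervals that cover counting of genes or peaks only. The NAT10 transcript had no knockout peak and 1 SiHa peak. Of 14 epithelial markers, 4 had a knockout peak and 7 a SiHa peak, and KRT8, KRT19 and DSP had peaks in both. Of 13 markers of blood, vessel, stroma and liver, 6 had a knockout peak and 4 a SiHa peak. For CD68 and APOA1 among them several identifiers qualified, so neither was given a name and both count as without a peak. Over RefSeq protein-coding genes, 15.3% had a knockout peak and 30.0% a SiHa peak. HBA1, HBA2, HBB and ALB had peaks in both lists, and PTPRC and PECAM1 in the knockout list alone. Their part in the results below was not tested.

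A knockout peak was found in 11 of the 36 RNA modification genes (30.6%) and a SiHa peak in 29 (80.6%, 64.0 to 91.8%). Over 20050 RefSeq protein-coding genes the shares were 15.3% and 30.0%. That background includes genes that SiHa cells may not express, and the files give no expression levels. It also counts a gene for which several identifiers qualified as having no peak, which can lower both background shares. None of the 36 genes was such a case, and none of the wider list given below. Among the 29 genes with a SiHa peak, 10 also had a knockout peak and 19 had none (65.5%, 45.7 to 82.1%). Over all 7291 genes with a SiHa peak, 73.0% had none, which lies inside that interval. A knockout peak without a SiHa peak occurred in 1 of the 11 genes, IGF2BP1, and over all genes with a knockout peak in 47.1%. The 6 genes with a peak in neither list were YTHDC2, NSUN5, ALYREF, PUS10, ADARB1 and TRMT1.

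**Figure D1:**
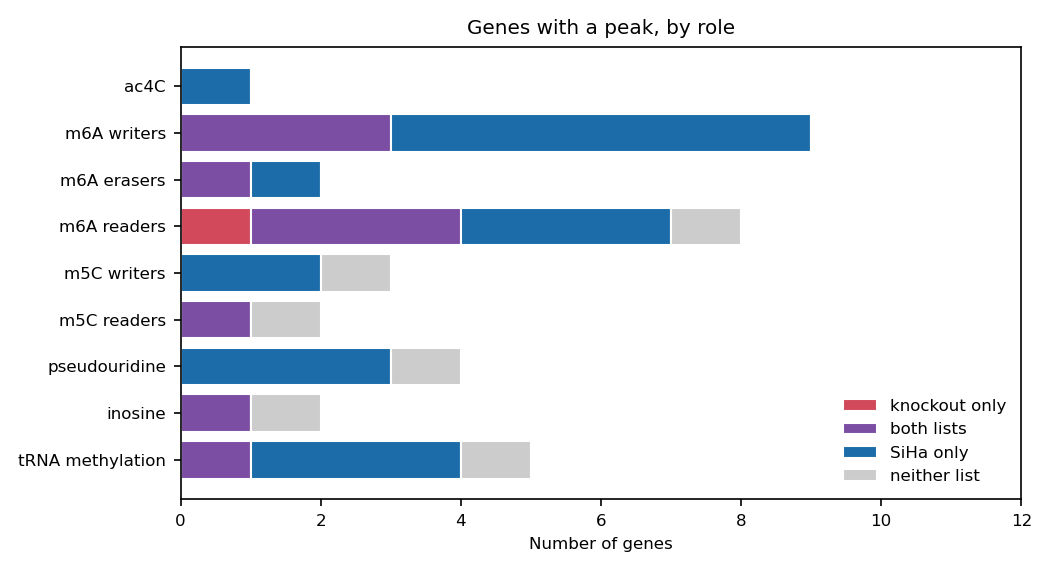
Number of genes (horizontal axis) with a peak in the knockout list only, in both lists, in the SiHa list only or in neither, for each role (rows). All 9 m6A writers had a SiHa peak and 3 of them also a knockout peak, and none of the 4 pseudouridine synthases had a knockout peak. Over protein-coding genes, 30.0% had a SiHa peak and 15.3% a knockout peak.

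THUMPD1 had no knockout peak and 4 SiHa peaks. Their deposited p-values were 8.9e-09, 0.00036, 0.0016 and 0.00036, and the strongest lay at chromosome 16, 20737828 to 20738038 (GRCh38). The gene stood at position 3882 of 7291 when genes were ranked by their strongest SiHa peak. In that order, the 4 p-values were listed for 102, 454, 671 and 454 SiHa peaks. When values shared by at least 10 peaks were left out of both lists, THUMPD1 had no peak in either. The same held when the SiHa list was reduced to the length of the knockout list. These peaks lie on the strand of THUMPD1 but in the RefSeq span of ACSM3 as well, whose strand the tables do not give. Naming by the protein-coding gene with most bases gives no name where genes tie, and it did not give these peaks to THUMPD1.

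Of the 19 m6A genes, 8 had a knockout peak (42.1%) and 17 a SiHa peak (89.5%, 66.9 to 98.7%). Over protein-coding genes these shares were 15.3% and 30.0%. Of the 17 genes, 10 had no knockout peak (58.8%, 32.9 to 81.6%), and that interval includes the 73.0% over all genes. Knockout peaks were found in 3 of the 9 m6A writers (33.3%), ZC3H13, RBM15 and CBLL1, and SiHa peaks in 9 of 9 (66.4 to 100%). The catalytic pair had weak signals: METTL3 had no knockout peak and 1 SiHa peak, listed at a p of 4.7e-05, and METTL14 had no knockout peak and 1 SiHa peak with a deposited p of 5.4e-06. The METTL14 peak consisted of 3 blocks that together held 180 bases across 2761 bases of genomic sequence, so it crossed splice junctions. METTL16, which methylates U6 small nuclear RNA on its own, had no knockout peak and 1 SiHa peak with the same deposited p.

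The strong SiHa peaks of the writer group lay in the regulatory subunits. For SiHa peaks, strong and weak refer throughout to the deposited p alone, as that list gives no fold. How transcript abundance bears on these p-values was not tested. ZC3H13, a zinc finger subunit of the complex, had 1 knockout peak (deposited p of 2e-27, fold of 1.73) and 4 SiHa peaks, with SiHa p-values listed at 0, 1e-216, 2e-63 and 2e-27. The fold is the authors' enrichment ratio, deposited for knockout peaks alone, and its reference is not stated. RBM15, an RNA-binding adaptor of the complex, had 1 knockout peak (deposited p of 1e-20, fold of 84.6) and 5 SiHa peaks, of which the strongest had a p listed at 0. Its paralog RBM15B had no knockout peak and 3 SiHa peaks, the strongest with a deposited p of 1e-155 and another of 1258 bases with a deposited p of 1e-102. That peak, on chromosome 3 from 51392434 to 51393691, was the longest of the 36 genes.

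VIRMA, the scaffold of the regulatory subcomplex, had no knockout peak and 4 SiHa peaks with a best p of 1.6e-46. WTAP, which brings the catalytic pair to nuclear speckles, had no knockout peak and 3 SiHa peaks with a best p of 4e-22. One of its peaks, chromosome 6, 159726482 to 159726721, began before the RefSeq span of the gene, which starts at 159726693. CBLL1, a ubiquitin ligase subunit also called Hakai, had 1 knockout peak (deposited p of 7.4e-07, fold of 8.33) and 2 SiHa peaks with a best p of 3.2e-61. By strongest SiHa peak, ZC3H13 and RBM15 were among the 281 genes tied at the first rank, those with a p listed at 0, RBM15B stood at 539, CBLL1 at 1163, VIRMA at 1428 and WTAP at 2291, while METTL3 stood at 5001.

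Both m6A erasers had weak SiHa peaks. FTO had no knockout peak and 1 SiHa peak with a deposited p of 1.9e-05, near the 3′ end of its long span. ALKBH5 had 1 knockout peak with a deposited p of 0.00072 and a fold of 15.4, and 1 SiHa peak with a deposited p of 0.004. The 2 ALKBH5 peaks lay 2737 bases apart, and the knockout peak had a false discovery rate of 0.155 in the authors' column.

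Of the cytoplasmic m6A readers of the YTHDF family, YTHDF2 and YTHDF3 had strong SiHa peaks. By strongest SiHa peak, YTHDF2 ranked 525, YTHDF3 945 and YTHDF1 2819 of 7291 genes. YTHDF2, which directs m6A transcripts to decay, had no knockout peak and 2 SiHa peaks, 1 of them 719 bases wide with a deposited p of 1e-159. YTHDF3 had 2 knockout peaks, with deposited p-values of 7.4e-08 and 0.01, and 3 SiHa peaks, with p-values of 6.3e-80, 6.3e-53 and 2.5e-48. The weaker of the YTHDF3 knockout peaks had a false discovery rate of 0.526. YTHDF1 had 1 knockout peak, with a deposited p of 0.0013, and 3 SiHa peaks, with a best p of 6.3e-16. YTHDF1 and YTHDF3 thus had peaks in both lists and YTHDF2 had SiHa peaks alone.

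Among the other readers, YTHDC1, the nuclear reader, had 1 knockout peak with a deposited p of 0.00019 and 1 SiHa peak with a deposited p of 4e-20. The IGF2BP family, which stabilises bound messenger RNA, had a single peak or 2 in each of its members. IGF2BP1 had 1 knockout peak, with a deposited p of 7.9e-12 and a fold of 48.7 at chromosome 17, 49051366 to 49051545, and no SiHa peak. IGF2BP2 had no knockout peak and 2 SiHa peaks with p-values of 4e-25 and 2e-15. IGF2BP3 had no knockout peak and 1 SiHa peak with a deposited p of 2.8e-09. All 4 of these knockout and SiHa IGF2BP peaks had their centre in the last 10% of the gene span. When values shared by at least 10 peaks were left out of both lists, none of the 3 genes had a peak in either.

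Of the 5 m5C genes, 1 had a knockout peak (20%) and 3 a SiHa peak (60%, 14.7 to 94.7%), against 15.3% and 30.0% over protein-coding genes. The writer NSUN2 had no knockout peak and 1 SiHa peak of 121 bases with a deposited p of 0.0076, and TRDMT1, a tRNA methyltransferase, had no knockout peak and 1 SiHa peak with a deposited p of 0.027. By strongest SiHa peak they ranked 6676 and 6778 of 7291 genes. The reader YBX1, an abundant cold shock protein, had a peak in both lists. Its knockout peak had a deposited p of 2e-77, the smallest among the knockout peaks of the 36 genes, at a fold of 2.15, and its SiHa peak had a deposited p of 1.3e-27. The knockout peak joined 3 blocks and the SiHa peak 2, and 1002 bases of genomic sequence separated them.

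None of the 4 pseudouridine synthases had a knockout peak and 3 had a SiHa peak (75%, 19.4 to 99.4%). Over protein-coding genes these shares were 15.3% and 30.0%. PUS7 had 1 SiHa peak of 240 bases with a deposited p of 2e-77, and PUS1 had 1 SiHa peak of 598 bases with a deposited p of 1.3e-69. They ranked 971 and 1054 of 7291 genes. TRUB1, the homologue of the bacterial tRNA enzyme TruB, had no knockout peak and 2 SiHa peaks with p-values of 2.2e-07 and 0.0066. With 3 genes that had a SiHa peak, 3 of 3 without a knockout peak has an interval of 29.2 to 100%, which includes the share of 73.0% over all genes.

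ADAR, which edits adenosine to inosine, had the most knockout peaks of the 36 genes. It carried 3 knockout peaks with folds of 2.91, 14.1 and 3.49 and p-values of 9.1e-08, 3.2e-11 and 2.5e-36, and 3 SiHa peaks with p-values of 1e-155, 0.00013 and 0. The first of the knockout peaks lay at chromosome 1, 154584787 to 154584997, within the SiHa peak from 154584727 to 154585027. The last lay at 154601371 to 154601670, within a SiHa peak of 1139 bases from 154601191 to 154602329. The remaining knockout peak came within 29 bases of the SiHa peak nearest to it and shared no base with it. Each ADAR peak of either list therefore had a counterpart in the other list at the same place or next to it.

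Of the 5 tRNA methylation genes, 1 had a knockout peak (20%) and 4 a SiHa peak (80%, 28.4 to 99.5%). Over protein-coding genes these shares were 15.3% and 30.0%. Among the 5 genes, WDR4 had the strongest SiHa peak and the sole knockout peak. WDR4, the partner that METTL1 needs to form m7G in tRNA, had 1 knockout peak with a deposited p of 0.0018 and a fold of 5.98, and 1 SiHa peak with a deposited p of 3.2e-50. The false discovery rate of the knockout peak was 0.165. METTL1 itself had no knockout peak and 1 SiHa peak with a deposited p of 6e-05. TRMT6 and TRMT61A together form m1A in tRNA. TRMT6 had no knockout peak and 1 SiHa peak, whose p was 7.8e-08, and TRMT61A had no knockout peak and 2 SiHa peaks with p-values of 0.0066 and 0.027.

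**Figure D2:**
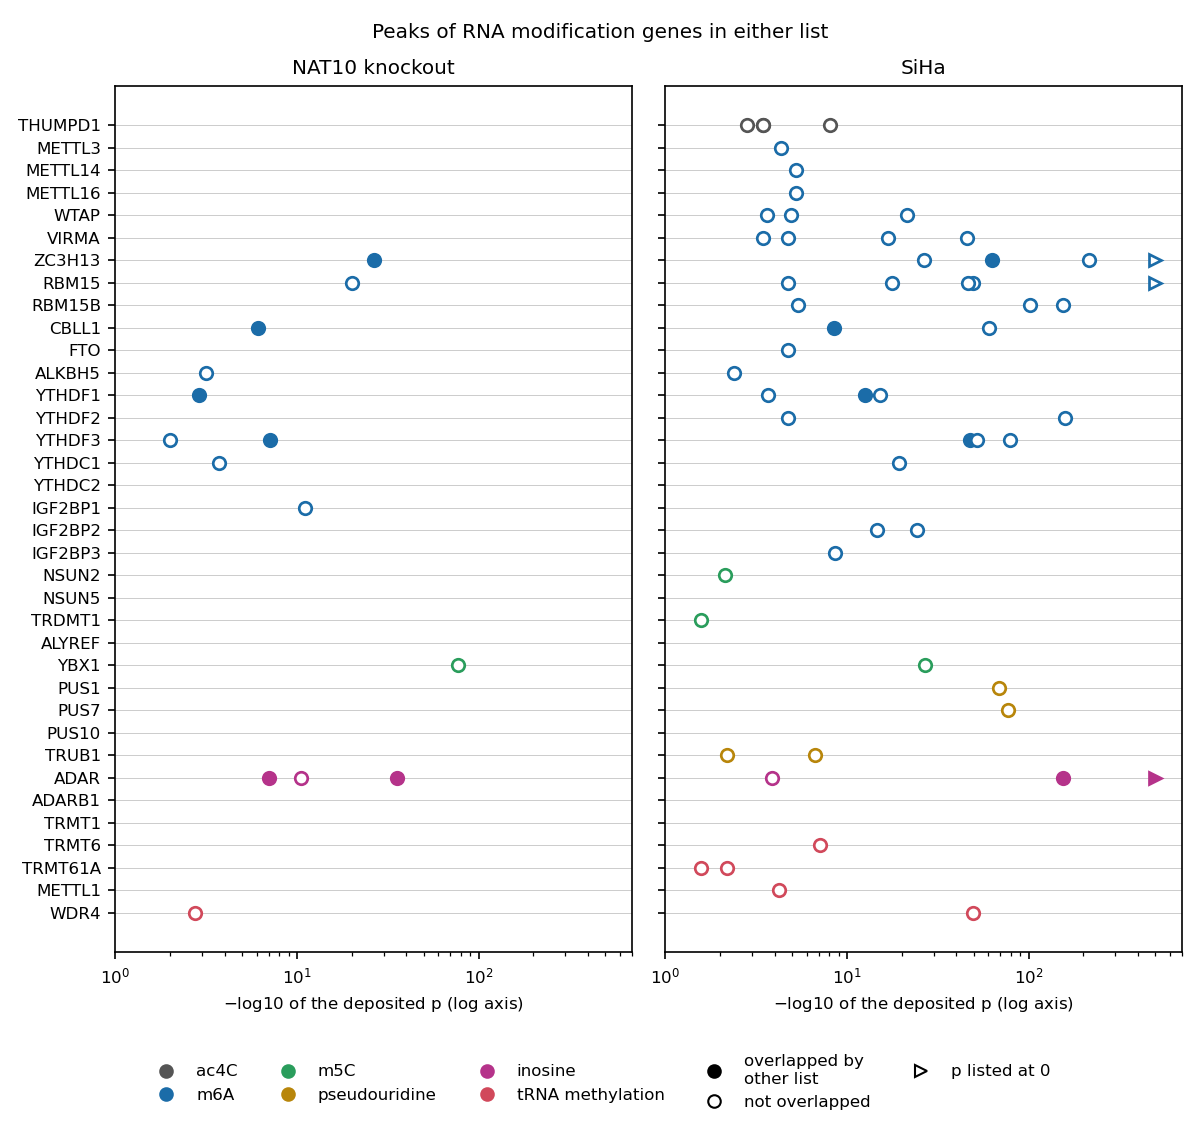
Each symbol is 1 peak, placed by −log10 of the deposited p on a log axis, for the knockout list (left) and the SiHa list (right). Rows are the 36 genes, colours the modifications, filled symbols are peaks overlapped by the other list and triangles have a p listed at 0. The p-values of separately called lists share no scale. ZC3H13, RBM15 and ADAR had a SiHa p listed at 0.

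Having a peak in both lists did not always mean having it at the same place. Peaks were called overlapping when their blocks shared at least 1 base on the same strand. Of the 14 knockout peaks in these genes, 6 shared bases with a SiHa peak (42.9%, 17.7 to 71.1%), and over the whole knockout list 19.2% did. Of the 57 SiHa peaks, 6 shared bases with a knockout peak (10.5%, 3.96 to 21.5%), and over the whole SiHa list 6.76% did. The overlaps lay in 5 of the 10 genes with peaks in both lists, namely ZC3H13, CBLL1, YTHDF1, YTHDF3 and ADAR, and over all such genes in 39.5%. Counted by place, 24 of the 29 genes with a SiHa peak (82.8%) had none that a knockout peak overlapped, and over all genes 89.3%.

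The overlapping peaks were nested. In 6 of 6 cases every base of the knockout peak lay inside the SiHa peak, whereas over the whole knockout list this held for 463 of 876 overlapped peaks (52.9%). Of the 6 cases, 2 lay in ADAR. The SiHa peaks concerned held 301 to 1139 bases, against a median of 181 in the whole SiHa list, and the part of width in the nesting was not tested. In ZC3H13 the knockout peak of 181 bases (chromosome 13, 45975355 to 45975535) lay within 331 bases of SiHa peak. In CBLL1, 151 knockout bases (chromosome 7, 107758882 to 107759032) lay within 450 SiHa bases. In YTHDF1, 179 knockout bases lay within 536, and in YTHDF3, 180 within 659. The folds of these 6 knockout peaks ran from 1.73 in ZC3H13 to 8.72 in YTHDF3, with a median of 4.31. The other 8 knockout peaks ran from 2.15 in YBX1 to 84.6 in RBM15, with a median of 12.2. Over the whole list the median folds were 11.8 in overlapped peaks and 12.8 in the others. Many of these folds are values shared between peaks, as given below.

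In the 5 remaining genes with peaks in both lists the peaks lay apart. In YTHDC1 the gap was 59 bases, with the knockout peak at chromosome 4, 68313947 to 68314097, and the nearest SiHa block starting at 68314157. In RBM15 it was 388 bases, the knockout peak (chromosome 1, 110342487 to 110342666) following a row of 4 SiHa peaks towards the 3′ end. In WDR4 the gap was 475 bases of genomic sequence. YBX1 and ALKBH5 had the wider gaps given above. Of the 5 genes with overlapping peaks, the strongest SiHa peak was overlapped in ADAR and was not in ZC3H13, CBLL1, YTHDF1 and YTHDF3.

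**Figure D3:**
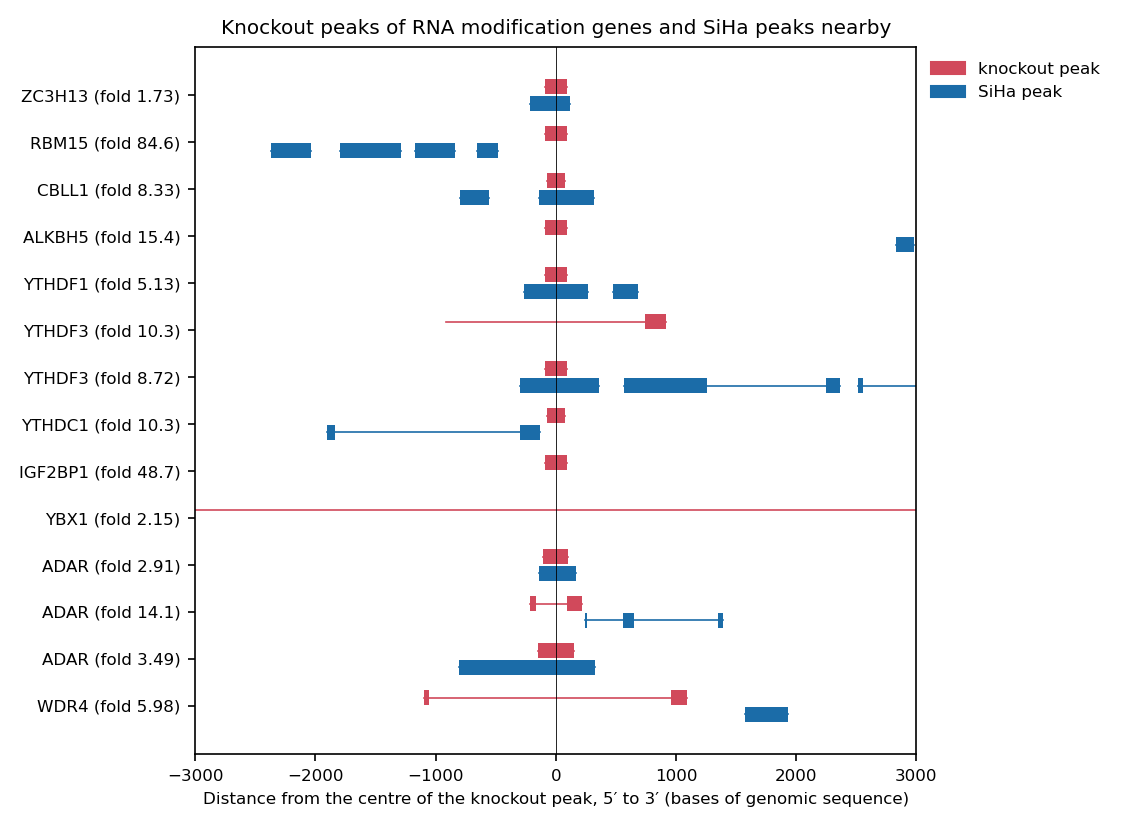
Blocks of the 14 knockout peaks (red) and of SiHa peaks of the same gene (blue) by distance from the centre of the knockout peak, in bases of genomic sequence read 5′ to 3′. Thin lines join blocks of 1 peak. In 6 rows the knockout blocks lie within a SiHa block, and IGF2BP1 has no SiHa peak. The YBX1 blocks lie outside the plotted range.

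Many deposited values were shared exactly between peaks, which bears on how finely they rank genes. The same fold and p occurred in at least 10 knockout peaks for 7 of the 14 knockout peaks (50%) and for 59.3% of the whole list. The pair of ALKBH5 was listed for 178 knockout peaks, that of the weaker YTHDF3 peak for 224, that of YTHDC1 for 48 and that of IGF2BP1 for 31. The pair of WDR4 was listed for 33, that of YTHDF1 for 27 and that of RBM15, with the fold of 84.6, for 13. Among the knockout peaks overlapped by SiHa peaks, 1 of 6 had such a shared pair, in YTHDF1, and among the others 6 of 8. Over the whole list these shares were 39.6% and 64.0%. The most frequent knockout folds rose in steps of about 2.56, so such folds are coarse values. In the SiHa list, the p of 1.9e-05 stood at peaks of FTO, RBM15, VIRMA and YTHDF2 and at 313 peaks in all, and the p of 0.027 at peaks of TRDMT1 and TRMT61A and at 1081 in all. A p above 0 shared by at least 10 SiHa peaks occurred for 25 of the 57 peaks (43.9%) and for 72.3% of the whole list. A p listed at 0, which is also a shared value, is not in those counts and stood at 3 of the 57 peaks and at 309 in the whole list. The reads behind these values are not given.

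The SiHa peaks of the 36 genes had a higher median width and strength than the whole SiHa list, a description with no test. The median was 240 bases, against 181 in the list, and 10 of 57 (17.5%) had at least 500 bases, against 6.67%. The median −log10 p was 12.5, against 6.05 in the whole list. The knockout peaks had a median of 180 bases, the same as in the whole knockout list, and the longest, in ADAR, had 300. Knockout peaks numbered 0.246 for each SiHa peak in these genes and 0.353 over both lists. Per base of peak the ratio was 0.145, against 0.248 over both lists. Sums of this kind move with how much was called in each list.

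**Figure D4:**
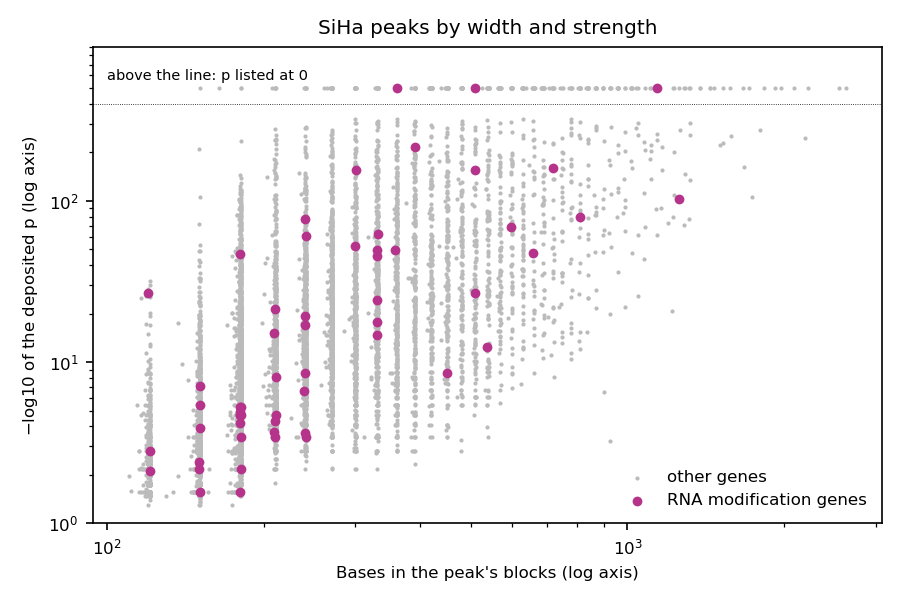
Each point is 1 SiHa peak, placed by the bases in its blocks and by −log10 of its deposited p, both on log axes, with peaks whose p is listed at 0 above the dotted line. The 57 peaks of RNA modification genes (purple) had a median of 240 bases and the whole list 181.

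The genes were also divided by the number and the strength of their SiHa peaks. With 1 SiHa peak, 11 of 15 genes had no knockout peak (73.3%, 44.9 to 92.2%), against 78.5% over all genes with 1 SiHa peak. With 2, 4 of 5 had none (80%, 28.4 to 99.5%), against 69.0%. With 3 or more, 4 of 9 had none (44.4%, 13.7 to 78.8%), against 59.9%. When the strongest SiHa peak had a p above 1e-08, 10 of 11 genes had no knockout peak (90.9%, 58.7 to 99.8%), against 80.8%, and the exception was ALKBH5. When it was smaller, 9 of 18 had none (50%, 26.0 to 74.0%), against 66.3%. The intervals by number of peaks overlap, as do those by strength, and no order can be read from them in the 36 genes.

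Along the gene span, introns included, 3 of 14 knockout peaks (21.4%) and 15 of 57 SiHa peaks (26.3%, 15.5 to 39.7%) had their centre in the last 10%. Over named protein-coding genes these shares were 32.2% of knockout peaks and 40.2% of SiHa peaks. Peaks of 1 gene share their transcript and are not independent. In the first 10% lay none of the knockout peaks and 1 of the SiHa peaks, in METTL14, and 1 WTAP SiHa peak had its centre before the span. Peaks of several blocks, which cross splice junctions, made up 4 of 14 knockout peaks (28.6%), against 31.3% of the knockout list, and 12 of 57 SiHa peaks (21.1%), against 25.2% of the SiHa list.

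A wider list of 107 further RNA modification genes, with the rarer tRNA, ribosomal RNA and cap modifications, had knockout peaks in 18 genes (16.8%) and SiHa peaks in 50 (46.7%, 37.0 to 56.6%), against 15.3% and 30.0% over protein-coding genes. Of those 50, 41 had no knockout peak (82%, 68.6 to 91.4%), and that interval includes the 73.0% over all genes. Peaks in both lists were found in 9 genes. TYW1, of wybutosine synthesis, had a knockout peak with a fold of 32 overlapping its SiHa peak. EMG1, a methyltransferase of ribosomal RNA, had a fold of 29.5, TP53RK, the kinase of the KEOPS complex, 22.2 and MRM3, a mitochondrial ribosomal RNA methyltransferase, 17.9, and none of these overlapped a SiHa peak. PRRC2A, an m6A reader, had 3 knockout and 3 SiHa peaks and a highest fold of 13.5, and 2 of its SiHa peaks were overlapped. QTRT2, of queuosine formation, had a fold of 8.97 at a deposited p of 0.00066 and no overlap, and the MRM3 knockout peak had a deposited p of 0.00019. RNMT, NOP10 and TRMT61B, with lower folds of 3.99, 6.51 and 5.98, each had 1 knockout peak, which overlapped a SiHa peak.

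Of the 18 genes of the wider list with a knockout peak, 9 had no SiHa peak (50%), against 47.1% over all genes with a knockout peak. They included TET3, a methylcytosine dioxygenase, with a highest fold of 41 and a best deposited p of 5.6e-10. GTPBP3, which modifies mitochondrial tRNA, had a fold of 28.2 at a deposited p of 6.9e-07. TYW5 and ELP2 had 12.8 each, at a deposited p of 0.0028. ADARB2 and CDK5RAP1 had 10.3 each, at a deposited p of 0.01. The weaker YTHDF3 knockout peak had that same fold and p, at a false discovery rate of 0.526. The strongest SiHa peaks without a knockout peak lay in TRUB2, a mitochondrial pseudouridine synthase with 4 SiHa peaks and a p listed at 0. NOP2, the nucleolar m5C writer of ribosomal RNA, followed with a deposited p of 5e-87, and DKC1, the pseudouridine synthase of the H/ACA particles, with 3.2e-64. Next came TRMT10C with 2e-60, TRMT5 with 4e-51, MOCS3 with 1.3e-50, ELP3 with 3.2e-45 and ALKBH1 with 2.5e-44.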

How the data were processed

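The authors deposited 1 peak list for each cell population. Per the file headers, each peak has blocks, an Ensembl identifier and a column score, whose values are p-values. The knockout list deposited by the authors adds log10 of the p-value and of the false discovery rate (some lie below the usual log range) and a fold enrichment, a ratio. The false discovery rates given here were converted back from log10, and they do not follow the order of the deposited p. YTHDF1 has a rate of 0.017 at a deposited p of 0.0013, and ALKBH5 0.155 at 0.00072. Per the submitters' processing notes, FastQC 0.11.7 was used and the build is GRCh38 (hg38). The sources used here name no aligner or peak caller and do not say how replicates were pooled, and depth is unknown.

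Off-chromosome peaks were dropped (2 knockout, 3 SiHa), as was 1 repeated SiHa line. Starts were read as counted from 0. An identifier took a gene's name when at least 50% of its peak bases lay in the RefSeq span (GRCh38.p14) on the gene's strand and no other identifier qualified. For 6 of the 36 genes the tables give no strand. Of 108 genes written down for the wider list, 107 were in the table. All genes, roles and lists were chosen with earlier results of these data known. Named from the wider list were the 12 genes with the highest knockout folds and the 8 with the smallest SiHa p among those without a knockout peak. RNMT, NOP10 and TRMT61B were named as well, to complete the 9 genes of that list with peaks in both lists. The overlap and naming steps were tested on simulated data. Python 3.11.15, pandas 2.3.3, numpy 2.4.6 and scipy 1.17.1 were used. The alternatives tried are given in the closing section. No sequences are printed, because no genome was used here.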

Additional observations from a re-analysis of the deposited data

How the results depend on the processing

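Among the 36 genes, the share of SiHa peak genes that lacked a knockout peak stayed within its interval of 45.7 to 82.1% in the peaks whose −log10 p exceeded 8, when the knockout false discovery rate was limited to 0.05 and under both other namings. It reached 93.1% when overlap of 50% of both peaks was required, 82.8% when knockout peaks with a repeated fold and p were left out, 82.8% when overlap of 1 base was required and 43.8% when the SiHa list was reduced to the length of the knockout list. The background moved in the same direction but not by the same amount, to 94.7%, 86.4%, 89.3% and 65.5% in that order. It was 84.8% above −log10 p of 8 and 77.9% at the limited false discovery rate, against 77.8% and 72.4% in the 36 genes. Leaving repeated values out of both lists gave 77.5% in the background and 81.0% (17 of 21) in the 36 genes. That was the only setting in which the share of the 36 genes was the higher. The 10 genes with peaks in both lists became 4 above −log10 p of 8, 2 with overlap of 50%, 5 without the repeated knockout values, 5 with overlap of 1 base and 4 without repeated values in both lists. The share of overlapped SiHa peaks was 10.5% as reported, 3.51% with overlap of 50%, 6.25% above −log10 p of 8 and 17.2% with the reduced SiHa list. The wider list had 96% without a knockout peak with overlap of 50% and 64% with the reduced SiHa list. Of the 36 genes, 20 kept their class above −log10 p of 8, 23 with the reduced SiHa list and 22 without repeated values in both lists. ZC3H13 and ADAR kept a peak in both lists under each of the 9 alternatives. IGF2BP1 lost its knockout peak when repeated knockout values were left out, as did RBM15, ALKBH5, YTHDF1, YTHDC1 and WDR4. IGF2BP2 and IGF2BP3 lost their SiHa peaks when repeated values were left out of both lists, a setting that keeps peaks with a p listed at 0. The overlap of 1 base, the repeated values in both lists and the earlier naming were added after the data had been seen. The cause of these shifts was not tested. Both overlap settings kept the 29 genes and 57 SiHa peaks and asked for a shared place instead of a shared gene. No paired analysis was possible because each list pools the replicates of its group, and for the same reason no replicate could be left out.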
